A study of Homo sapiens with 82 samples.

Results

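The genes described here license DNA for replication: ORC1, CDC6 and CDT1, which load the replicative helicase onto DNA, MCM2, MCM3, MCM4, MCM5, MCM6 and MCM7, which form that helicase, and GINS2, which joins it when it is switched on. They were taken by symbol from the gene count tables of HT29 cells, where these 10 genes are 10 of 51838 rows. Each symbol had 1 row, and all 10 passed the filter on low counts. The rule used symbols and no measured value, though the genes were chosen with earlier results of these data known.

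Licensing is the step in which a cell marks each origin of replication for use in the coming S phase. The origin recognition complex, with ORC1 as a subunit, sits on DNA and recruits CDC6 and CDT1, which together place a ring of MCM proteins around the double helix. The ring stays idle until S phase, when CDC45 and the GINS complex bind and turn it into a running helicase. Cells that leave the cell cycle lose much of this machinery, so transcripts of these genes are widely read as signs of proliferation, and the E2F factors are known to drive many of them at the passage from G1 to S.

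HT29 is an established line of human colorectal adenocarcinoma cells. The series holds 82 samples, of which the 32 RNA-seq libraries were used here, 4 for each of 8 groups. The drugs were GW3965, T0901317 and rosiglitazone, each at 10 μM, and the carrier DMSO alone served as control. Cells were collected after 24 or 48 h, so that each time point had a DMSO group of its own. GW3965 and T0901317 are synthetic agonists of the liver X receptors (LXRs), and rosiglitazone is an agonist of PPARG. Before drug treatment the cells were grown in medium free of phenol red with charcoal-treated serum, and the labels give no genetic change in any group. The study's methods say that treatments were done in quadruplicate, and neither they nor the labels say whether these were separate cultures, so p-values measure the spread between these libraries, part or all of which may be technical. RNA was taken from whole cultures, where fewer cells in cycle and less RNA per cell cannot be told apart.

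The libraries of 24 h held 21044798 to 51332656 counts each, and those of 48 h 32312041 to 50938082. Values below are CPM, counts scaled to a common library size with TMM factors, which depend on transcript length, so levels are compared between groups for a gene and not between genes. A gene was called changed at a Benjamini-Hochberg adjusted p under 0.01 in edgeR's quasi-likelihood test, at any fold change. All 10 markers of colon epithelium reached a mean of at least 1 CPM, from 2.68 to 9250 CPM, against 2 of 7 markers of blood, stromal and endothelial cells, whose highest mean was 5.62 CPM. The lipid transporter gene ABCA1, a known LXR target, rose by 4.61 ± 0.09 (log2, SE) with GW3965 and by 3.71 ± 0.09 with T0901317 at 24 h, whereas it fell by 0.95 ± 0.11 with rosiglitazone. PDK4, a known PPARG target, rose by 2.58 ± 0.10 with rosiglitazone at 24 h and also by 1.47 ± 0.10 with GW3965 (adjusted p = 8.88e-09), so it does not mark rosiglitazone alone.

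Promoter sequence was read from RefSeq windows of build GRCh38.p14, from 250 bases before to 50 after the start site, which were given for 8 of the 10 genes. MCM4 and MCM5 had none. The E2F site was searched on both strands as TTTNGCGC, TTTNGCGG and TTTCCCGC, and 7 of the 8 windows held at least 1 of these forms, against 4.87% of all 35116 windows. ORC1 was the window without a match. The following stretches run from 250 bases before to 20 after the start site. CDC6, ORC1 and CDT1 are shown because they were called with a drug against DMSO. MCM6 is shown because it held the most matches of the helicase genes. E2F matches are in capitals. They lie at chr17:40287629-40287898 (plus strand, CDC6), chr1:52404404-52404673 (minus strand, ORC1), chr16:88803539-88803808 (plus strand, CDT1) and chr2:135876424-135876693 (minus strand, MCM6).
CDC6: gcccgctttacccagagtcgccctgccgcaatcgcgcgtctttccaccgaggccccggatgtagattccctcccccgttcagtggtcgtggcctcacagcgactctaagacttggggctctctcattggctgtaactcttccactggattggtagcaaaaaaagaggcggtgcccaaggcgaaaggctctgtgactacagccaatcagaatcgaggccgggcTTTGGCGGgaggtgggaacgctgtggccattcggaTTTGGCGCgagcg
ORC1: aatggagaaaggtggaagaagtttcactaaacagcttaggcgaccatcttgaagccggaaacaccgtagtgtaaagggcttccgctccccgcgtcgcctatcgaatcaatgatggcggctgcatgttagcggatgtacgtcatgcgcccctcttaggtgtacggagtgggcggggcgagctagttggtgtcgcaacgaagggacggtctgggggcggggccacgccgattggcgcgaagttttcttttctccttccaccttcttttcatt
CDT1: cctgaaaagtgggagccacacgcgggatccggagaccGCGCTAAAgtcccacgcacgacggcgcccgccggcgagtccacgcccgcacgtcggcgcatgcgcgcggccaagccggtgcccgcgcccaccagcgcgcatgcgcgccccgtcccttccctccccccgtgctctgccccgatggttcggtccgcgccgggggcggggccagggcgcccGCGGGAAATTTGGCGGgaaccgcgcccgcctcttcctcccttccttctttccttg
MCM6: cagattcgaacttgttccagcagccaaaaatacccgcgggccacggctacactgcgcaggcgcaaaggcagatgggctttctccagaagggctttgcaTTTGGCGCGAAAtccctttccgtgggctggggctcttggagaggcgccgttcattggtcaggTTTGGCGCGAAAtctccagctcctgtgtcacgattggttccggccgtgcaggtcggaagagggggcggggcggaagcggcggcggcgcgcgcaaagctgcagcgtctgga
In CDC6 the matches covered positions -28 to -21 and 8 to 15, counted from the start site. CDT1 had a pair of matches side by side from -35 to -20 and another from -213 to -206. In MCM6 the 4 matches formed 2 pairs on opposite strands, and the matches of a pair shared 4 bases. MCM2 held such a pair from 3 to 14. CCAAT, another element common in promoters of cell cycle genes, was found in 6 of 8 windows against 34.6% of all windows. The AP1 site TGANTCA was found in 0 of 8, against 7.71% of all windows, and the exact DR4 and DR1 repeats, the textbook forms bound by LXR and PPARG with their partner RXR, in 0 of 8, against 0.0199% and 0.0228%. These are matches of letters in a short window, and peaks of the ChIP-seq files were not read at these promoters, because their coordinates are on hg19.

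Without a drug, 9 of the 10 genes were lower at 48 h than at 24 h, and CDC6 was not. Over all 23140 genes of this fit, 18.9% were lower and 19.7% were higher. ORC1 measured 33.5, 30.2, 29.7 and 33.2 CPM in the DMSO libraries of 24 h and 11.1, 15.1, 11 and 11.3 CPM in those of 48 h. All ORC1 values of 48 h were thus below all values of 24 h, and the gene fell by 1.38 ± 0.14 (log2, SE; adjusted p = 4.15e-10), to 0.384 of its level. CDC6 measured 45.6, 43.7, 48.1 and 45.1 CPM at 24 h and 51.9, 50.3, 53.3 and 51.9 CPM at 48 h. Its 48 h libraries were all above those of 24 h, by a log2 difference of 0.18 ± 0.08 that did not pass the threshold (adjusted p = 0.0445). Such a lack of overlap was seen in 22.9% of all genes for lower values and in 23.6% for higher values. CDT1, which ranged over 115 to 138 CPM in the earlier and 66.5 to 75.9 CPM in the later libraries, fell by 0.81 ± 0.12.

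The helicase genes fell together over the same interval, by unequal amounts. MCM4 went from a mean of 311 ± 6.29 CPM (SD, n = 4) to 151 ± 11.2 CPM, and fell by 1.045 ± 0.10 on the log2 scale, and MCM3 fell by 1.01 ± 0.11, MCM5 by 0.99 ± 0.12 and MCM2 by 0.88 ± 0.115. Smaller falls were seen for MCM6, by 0.61 ± 0.10, and for MCM7, by 0.31 ± 0.07, from 502 ± 17.7 to 406 ± 19.8 CPM. GINS2, a subunit of the GINS complex, went from 14.4 ± 1.5 to 7.73 ± 0.94 CPM and fell by 0.90 ± 0.13. MCM7 therefore made up a larger part of the summed MCM signal at 48 h, 39.9% ± 0.82 against 29.9% ± 0.38 at 24 h (SD, n = 4), and MCM3 a smaller one, 9.82% ± 0.36 against 12% ± 0.24. All 9 falls were called whichever library was left out, and ORC1, MCM3 and MCM4 also passed a fold of at least 2, against 3.44% of all genes for lower values. The groups of 24 and 48 h come from separate tables, and time and any difference in preparation between them cannot be told apart.

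**Figure D1:**
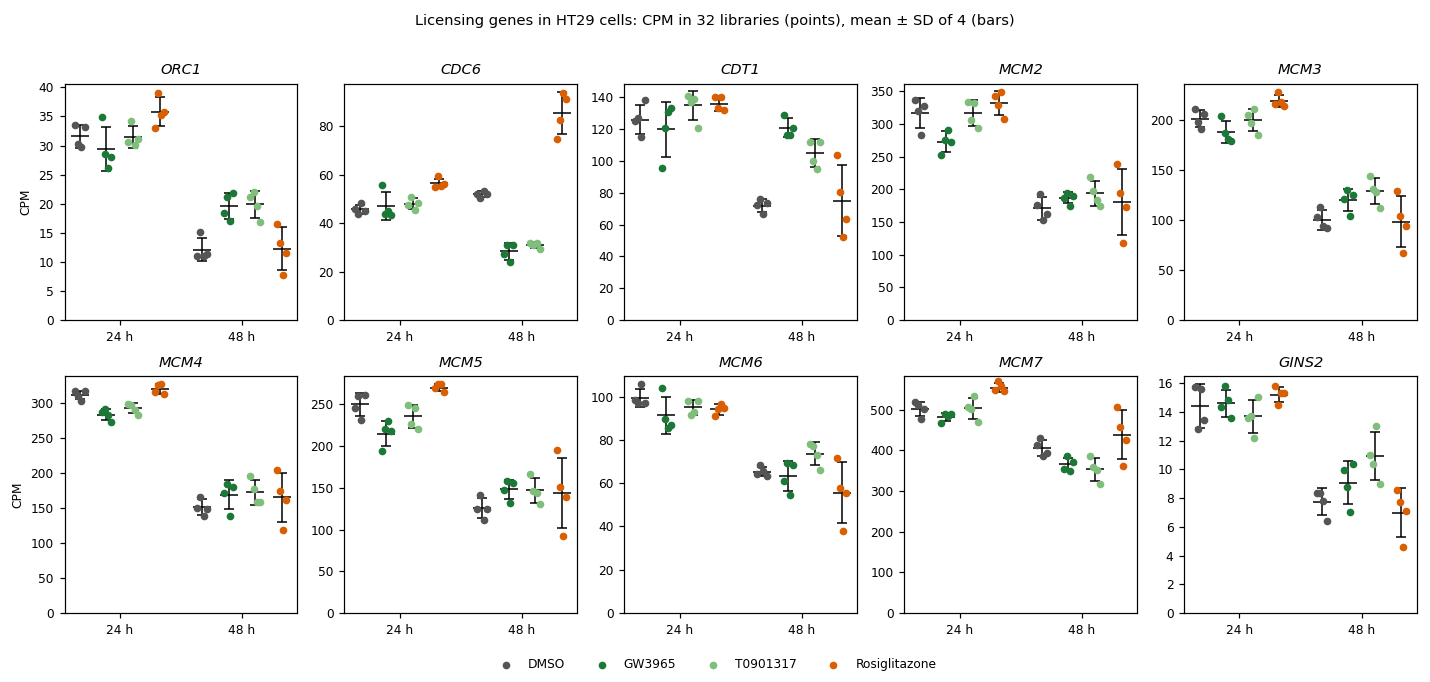
CPM of the 10 licensing genes (y axis, from 0) in DMSO, GW3965, T0901317 and rosiglitazone libraries at 24 and 48 h (x axis), with a point for each library and a bar for the mean ± SD of 4. ORC1, MCM2, MCM3, MCM4 and MCM6 lie lower in all 16 libraries of 48 h than in any of 24 h, whereas CDC6 splits by drug at 48 h, from 24.1 CPM with GW3965 to 93.5 CPM with rosiglitazone.

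Across all treatments, the libraries of 48 h lay below those of 24 h without overlap for 5 genes, ORC1, MCM2, MCM3, MCM4 and MCM6, against 3.29% of all genes. For MCM5 the ranges met only at the edge, with a lowest value of 194 CPM at 24 h and a highest of 195 CPM at 48 h. CDT1 ranged from 95.3 to 141 CPM at 24 h and from 52.1 to 129 CPM at 48 h, and GINS2 from 12.2 to 15.8 and from 4.57 to 13 CPM. For ORC1 the order of the 8 groups followed time first. The 4 groups of 24 h came first, with means of 29.4 to 35.8 CPM whose ranges overlapped, then T0901317 and GW3965 at 48 h (19.9 ± 2.29 and 19.6 ± 2.24 CPM), then rosiglitazone and DMSO at 48 h (12.3 ± 3.67 and 12.1 ± 2 CPM). In CDC6 the order followed neither time nor drug alone. Rosiglitazone at 48 h (85.4 ± 8.60 CPM) and 24 h (56.4 ± 1.95 CPM) came first. DMSO at 48 h and the other groups of 24 h came next, and neighbours among these overlapped. T0901317 (31 ± 1.25 CPM) and GW3965 (28.3 ± 3.31 CPM) at 48 h came last.

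With the LXR agonists at 48 h the loading factors split, with ORC1 and CDT1 higher and CDC6 lower than in DMSO. CDC6 measured 27.4, 31.1, 24.1 and 30.8 CPM with GW3965 and 32, 30.8, 32 and 29.4 CPM with T0901317, against 50.3 to 53.3 CPM in DMSO. No treated library reached the lowest DMSO library, and CDC6 fell by 0.88 ± 0.08 (log2, SE; adjusted p = 3.83e-08) with GW3965 and by 0.74 ± 0.08 (adjusted p = 3.49e-07) with T0901317. ORC1 measured 18.5, 21.2, 17 and 21.8 CPM with GW3965 and 21.2, 22.0, 19.6 and 16.8 CPM with T0901317, all above the DMSO libraries, whose highest value was 15.1 CPM. It rose by 0.69 ± 0.16 (adjusted p = 0.00163) and 0.71 ± 0.16 (adjusted p = 0.00139), and its treated levels stayed below every library of 24 h. CDT1 measured 129, 116, 116 and 121 CPM with GW3965 and 112, 100, 94.9 and 112 CPM with T0901317, against at most 75.9 CPM in DMSO. Again no library overlapped with DMSO, and CDT1 rose by 0.74 ± 0.135 (adjusted p = 0.000164) and 0.54 ± 0.135 (adjusted p = 0.00305). Over all genes, GW3965 libraries lay wholly above DMSO in 22.3% and wholly below in 22.5%. For T0901317 these shares were 19.2% and 19.7%. With GW3965 the CDT1 mean at 48 h, 121 ± 6.14 CPM, was close to its mean of 120 ± 17.3 CPM at 24 h.

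In each of the 2 comparisons, 2 of 10 licensing genes were called higher and 1 was called lower, where 16.1% and 17.5% of all 22470 genes were called with GW3965 and 14% and 16.1% with T0901317. These shares are of a like size to the background, and both drugs were set against the same 4 DMSO libraries. In fits of 1 drug and DMSO alone, 5 of the 10 genes were called with each drug, ORC1, CDC6 and CDT1 among them. The share of all genes called in those fits is not given here. In the fit of all 16 libraries of 48 h, MCM2 to MCM7 and GINS2 were not called with either drug. Their log2 differences from DMSO lay between -0.16 and 0.25 with GW3965 and between -0.20 and 0.49 with T0901317, where GINS2 was highest (0.49 ± 0.16, adjusted p = 0.0183). MCM3 differed by 0.36 ± 0.13 with T0901317 (adjusted p = 0.0355), and MCM7 was the MCM gene with a negative difference from DMSO with both drugs, -0.16 ± 0.08 and -0.20 ± 0.08. Though uncalled, MCM7 with GW3965 lay wholly below DMSO (349 to 385 against 387 to 430 CPM), as in 22.5% of all genes. GINS2 with T0901317 lay wholly above DMSO (9.01 to 13 against 6.38 to 8.38 CPM), as in 19.2%. Without replicate 3 of rosiglitazone, MCM3 and GINS2 were also called higher with T0901317, 5 genes in all. The CDT1 call with T0901317 was lost without replicate 3 of DMSO, replicate 1 of T0901317 or replicate 4 of T0901317 (adjusted p = 0.0137, 0.0111 and 0.0119).

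**Figure D2:**
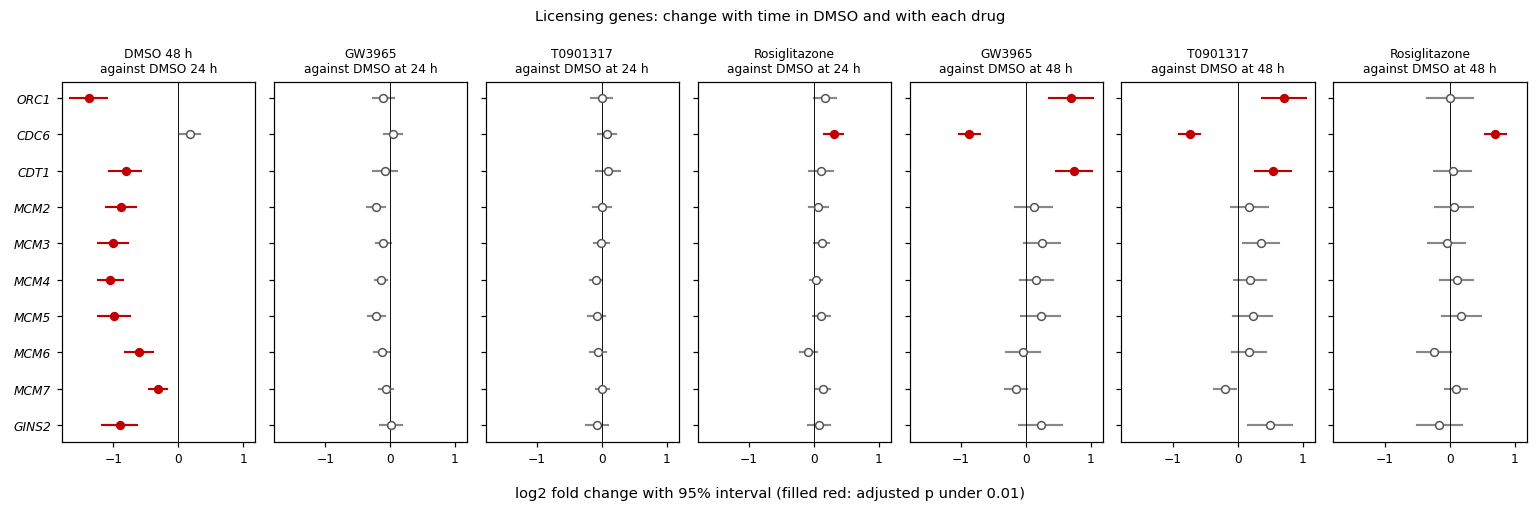
Log2 fold change of each licensing gene with its 95% interval (x axis) for DMSO at 48 h against DMSO at 24 h and for each drug against DMSO of its time point, with filled red points for an adjusted p under 0.01 in edgeR. In these fits of all libraries of a time point, called changes with drugs are limited to ORC1, CDC6 and CDT1. CDC6 has opposite signs with the LXR agonists and with rosiglitazone at 48 h. Fits of the compared libraries alone called more of the genes with the LXR agonists at 48 h.

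At 24 h no licensing gene was called with either LXR agonist by edgeR, where 1.86% of 21781 genes were called higher and 0.868% lower with GW3965, and 1.33% and 0.119% with T0901317. With GW3965, 4 of the 10 had an unadjusted p under 0.05, all of them lower: MCM2 by 0.22 ± 0.07 on the log2 scale (adjusted p = 0.0773), MCM5 by 0.21 ± 0.06 (adjusted p = 0.0536), MCM4 by 0.14 ± 0.045 (adjusted p = 0.0949) and MCM6 by 0.13 ± 0.06 (adjusted p = 0.304). Replicate 1 of GW3965 differed most from its group, with a chi-square per gene of 31.8 to 73.2, against 5.3 to 11.5 among the others. It was the lowest of the group for 4 genes, MCM2 (252 CPM) and MCM5 (194 CPM) among them, and the highest for 4, MCM6 (104 CPM) among them. With GW3965, 0 of the 10 were called whichever library was left out. DESeq2 called MCM4 lower with GW3965, and scaling by library size alone called MCM2 and MCM5 lower. With that scaling the median of all genes was also lower, -0.05 against -0.01 with TMM factors. With T0901317, 0 of 10 had an unadjusted p under 0.05, DESeq2 called 0, and the log2 differences lay between -0.09 and 0.09. MCM4 measured 316, 310, 303 and 316 CPM in DMSO at 24 h, 286, 291, 283 and 273 CPM with GW3965 and 298, 296, 289 and 283 CPM with T0901317. Those libraries did not overlap with DMSO in either case, as in 4.52% and 3.33% of all genes for lower values.

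With rosiglitazone CDC6 was the single licensing gene called against DMSO by edgeR, and it rose. At 24 h it measured 55, 59.3, 55.3 and 55.9 CPM against 43.7 to 48.1 CPM in DMSO, a rise of 0.30 ± 0.07 (log2, SE; adjusted p = 0.00337). At 48 h it measured 74.7, 82.3, 93.5 and 91 CPM against 50.3 to 53.3 CPM, a rise of 0.70 ± 0.08 (adjusted p = 8.94e-07), to 1.62 times the DMSO level. Every treated library exceeded every DMSO library at both times, as in 12.5% of all genes at 24 h and 17% at 48 h. The background of higher calls was 5.81% of all genes at 24 h and 12.3% at 48 h, that of lower calls was 6.52% and 13.1%, beside 1 of 10 licensing genes called higher and 0 of 10 lower at either time. The log2 differences of the other 9 genes from DMSO ran from -0.09 to 0.17 at 24 h and from -0.25 to 0.18 at 48 h, with adjusted p of at least 0.0631 and 0.128. The CDC6 call at 24 h was lost without DMSO replicate 2, DMSO replicate 4 or rosiglitazone replicate 2 (adjusted p = 0.0141, 0.0112 and 0.0143). It was also lost with scaling by library size (log2 difference of 0.21, adjusted p = 0.0938), a scaling that moved the median of all genes by -0.11. Without rosiglitazone replicate 1, MCM6 was also called at 48 h, as lower.

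For the 9 genes other than CDC6, the rosiglitazone libraries of 48 h had the largest coefficient of variation of the 8 groups. Replicate 1 had the highest value of the 4 for 9 of the 10 genes and the lowest for CDC6, and replicate 3 had the lowest value for those 9 genes and the highest for CDC6. MCM2, for example, measured 239, 195, 118 and 173 CPM in replicates 1 to 4, and MCM5 measured 195, 151, 92.6 and 139 CPM. The coefficient of variation of the 9 genes lay between 13.8% for MCM7 and 29.9% for CDT1 in this group. Of the 10 markers of colon epithelium, 7 were highest in replicate 3 and lowest in replicate 1, and 1, VIL1, was highest in replicate 1 and lowest in replicate 3. CEACAM5, an adhesion protein, measured 32.6, 40.7, 79.8 and 58 CPM and the keratin KRT20 810, 1010, 1510 and 1170 CPM, while VIL1, a protein of the brush border, measured 92, 79, 53.3 and 68.5 CPM. The other two, CDX1 and CDX2, were highest in replicate 2, with CDX1 lowest in replicate 3. TMM factors of the 4 libraries were 0.940, 0.900, 0.872 and 0.924, lowest in replicate 3. The part of these in the spread was not tested.

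**Figure D3:**
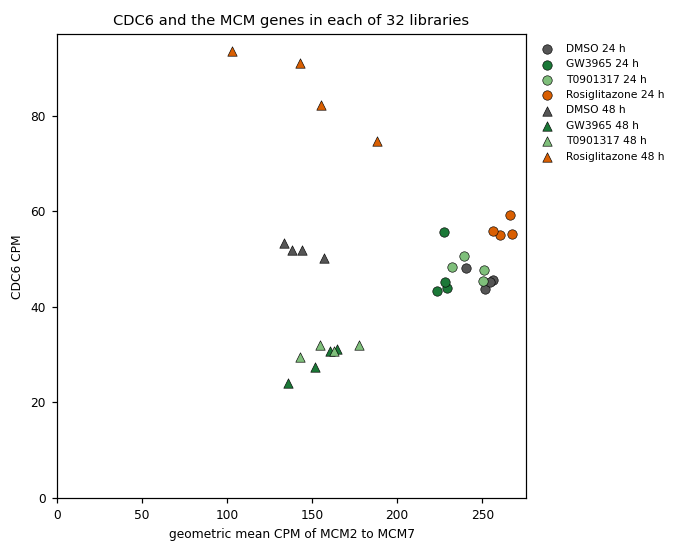
CDC6 CPM (y axis) against the geometric mean CPM of MCM2 to MCM7 (x axis), both from 0, in each of the 32 libraries, with circles for 24 h and triangles for 48 h. The 48 h libraries form 3 levels of CDC6 at overlapping MCM means: 24.1 to 32 CPM with the LXR agonists, 50.3 to 53.3 CPM in DMSO and 74.7 to 93.5 CPM with rosiglitazone.

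The level of CDC6 relative to the MCM genes of the same library, which does not depend on scaling, set the LXR agonists apart from DMSO at 48 h, whereas rosiglitazone and DMSO met at the edge. The log2 CPM of CDC6 minus the mean log2 CPM of MCM2 to MCM7 was -2.46 ± 0.09 in DMSO at 24 h and -1.46 ± 0.13 in DMSO at 48 h (SD, n = 4), and its size, which includes gene length, is read only between groups. At 48 h it was -2.36 ± 0.10 with T0901317, -2.44 ± 0.06 with GW3965 and -0.76 ± 0.50 with rosiglitazone. The LXR agonist libraries of 48 h, from -2.50 to -2.28, thus overlapped with DMSO at 24 h, from -2.52 to -2.32, and not with DMSO at 48 h, from -1.64 to -1.33. The rosiglitazone libraries of 48 h ran from -1.33 to -0.14. At 24 h the drug groups had means of -2.34 ± 0.11 (T0901317), -2.28 ± 0.17 (GW3965) and -2.22 ± 0.05 (rosiglitazone). The geometric mean of the MCM genes itself lay between 134 and 157 CPM in DMSO at 48 h, between 136 and 177 CPM with the LXR agonists and between 103 and 188 CPM with rosiglitazone.

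Set against each other at the same dose and time, the 2 LXR agonists did not differ in any licensing gene at the threshold (edgeR). Over all genes, GW3965 was higher than T0901317 in 0.193% and lower in 0.597% at 24 h, and higher in 5.03% and lower in 3.32% at 48 h. At 24 h, 2 genes had an unadjusted p under 0.05, MCM2, lower with GW3965 by 0.22 ± 0.07, and MCM5, by 0.14 ± 0.06, and at 48 h 0 genes did; DESeq2 called 0 at either time. The 95% intervals of the difference at 48 h ran from -0.35 to 0.30 for ORC1, from -0.30 to 0.03 for CDC6 and from -0.08 to 0.48 for CDT1. All 4 CDT1 libraries of GW3965 exceeded those of T0901317, by a log2 difference of 0.20 ± 0.13 (adjusted p = 0.349), as happened for 11.8% of all genes.

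At 48 h rosiglitazone and the LXR agonists differed most in CDC6. CDC6 was higher with rosiglitazone than with GW3965 by 1.58 ± 0.08 (log2, SE; adjusted p = 5.36e-12), 2.98 times the level, and higher than with T0901317 by 1.44 ± 0.08 (adjusted p = 1.17e-11). ORC1 was lower with rosiglitazone than with GW3965 by 0.69 ± 0.16 and than with T0901317 by 0.71 ± 0.16, and CDT1 by 0.70 ± 0.135 and 0.50 ± 0.135. Against T0901317, MCM6 (by 0.42 ± 0.125) and GINS2 (by 0.66 ± 0.16) were also lower with rosiglitazone, and MCM7 was higher, by 0.29 ± 0.08. In all, 1 gene was called higher and 2 lower against GW3965, with a background of 22.4% and 22.6%, and 2 higher and 4 lower against T0901317, with a background of 23.7% and 24.6%.

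The calls of CDT1, MCM6 and MCM7 against T0901317 at 48 h rested on single libraries and on the other groups in the fit. In fits of the rosiglitazone and T0901317 libraries alone they were not called (adjusted p = 0.0205, 0.0259 and 0.0312). For CDT1 the adjusted p was 0.0159 without rosiglitazone replicate 4, 0.0134 without T0901317 replicate 1 and 0.0143 without T0901317 replicate 4. The MCM7 call was lost without rosiglitazone replicate 1 or 2 (adjusted p = 0.0219 and 0.0156), without T0901317 replicate 4 (adjusted p = 0.0169) and with scaling by library size (log2 difference of 0.07, adjusted p = 0.487), and MCM6 lost its call without any 1 of the DMSO libraries, T0901317 replicate 1, 2 or 3 or rosiglitazone replicate 2, 3 or 4 (adjusted p of at most 0.0238), with a log2 difference of -0.27 without rosiglitazone replicate 3.

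At 24 h rosiglitazone stood above GW3965 in MCM5 by 0.325 ± 0.06 (adjusted p = 0.000814), in MCM2 by 0.28 ± 0.07, in MCM3 by 0.22 ± 0.06 and in MCM7 by 0.20 ± 0.05, where 4.6% of all genes were called higher and 6.09% lower. MCM5 measured 269, 274, 274 and 265 CPM with rosiglitazone and 194, 220, 230 and 218 CPM with GW3965, with no overlap. Rosiglitazone libraries lay wholly above those of GW3965 in 9.55% of all genes. The other genes called here had adjusted p of 0.00533 to 0.00931, just under the threshold, and ORC1, CDC6 and MCM4 were just above it (0.0185, 0.0103 and 0.0106). The number called accordingly moved between 1, without GW3965 replicate 2 or 4 or rosiglitazone replicate 1, 2 or 3, and 7, without GW3965 replicate 1, and MCM5 was called each time; it was 2 without DMSO replicate 2 or 4, T0901317 replicate 1 or 2, GW3965 replicate 3 or rosiglitazone replicate 4. Against T0901317 at 24 h, where 6.01% of genes were higher and 8.13% lower, 0 licensing genes were called by edgeR, 6 had an unadjusted p under 0.05 and DESeq2 called 2, CDC6 and MCM4; without GW3965 replicate 1, 2 were called, CDC6 and MCM5.

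The change from the 24 h to the 48 h response was itself tested in the fit of all 32 libraries. With GW3965 the responses of ORC1 and CDT1 rose by 0.80 ± 0.19 and 0.82 ± 0.17 on the log2 scale (adjusted p = 0.00136 and 0.000322), and that of CDC6 fell by 0.92 ± 0.11 (adjusted p = 6.95e-08), where 9.96% of all genes shifted upward and 11.7% downward. With T0901317 the response of ORC1 rose by 0.72 ± 0.19 (adjusted p = 0.00421) and that of CDC6 fell by 0.81 ± 0.11 (adjusted p = 6.71e-07), against 7.49% and 9.95% of all genes. The ORC1 call was lost without replicate 1 of DMSO at 24 h, replicates 1, 3 or 4 of DMSO at 48 h, or replicates 1 or 2 of T0901317 at 48 h (adjusted p from 0.0102 to 0.0133), and the number called with T0901317 lay between 1 and 3 over all libraries left out. With rosiglitazone 0 genes were called by edgeR, where 1.38% and 1.06% of all genes were, and 1 had an unadjusted p under 0.05: the CDC6 response differed by 0.41 ± 0.11 (adjusted p = 0.016), and DESeq2 called it. CDC6 was also called without GW3965 replicate 1 of 24 h, GW3965 replicate 3 of 48 h or rosiglitazone replicate 1 of 48 h.

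**Figure D4:**
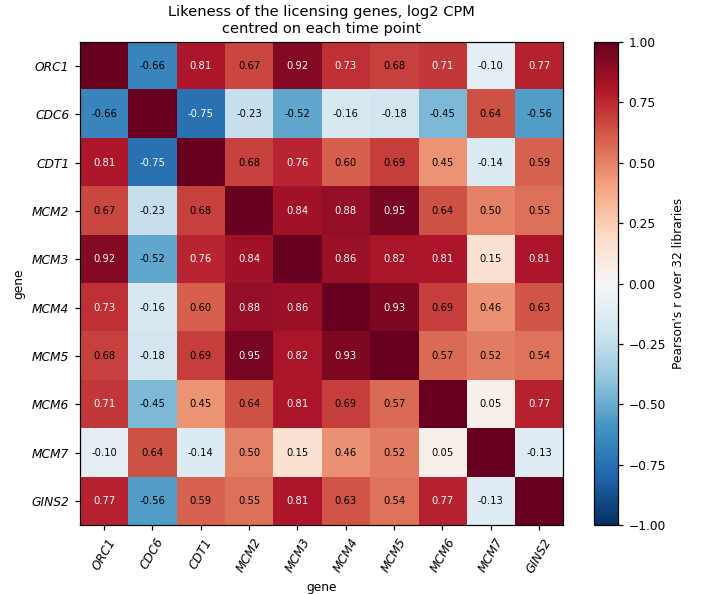
Pearson's r between the log2 CPM of each pair of licensing genes over the 32 libraries, after centring each gene on its mean at each time point (colour from -1, blue, to 1, red, with the value in each cell). ORC1, CDT1, MCM2 to MCM6 and GINS2 form a block of positive values, CDC6 is negative with each of them, and MCM7 has a positive value with CDC6 of 0.64.

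Within a time point most of the genes other than CDC6 varied alike, MCM7 less than the rest. Over the 32 libraries, centred on each time point, r between pairs of these 9 genes ran from -0.14 to 0.95 with a median of 0.68, highest for MCM2 with MCM5. CDC6 had r from -0.75, with CDT1, to 0.64, with MCM7, and a median of -0.45. MCM7 had r of 0.46 to 0.52 with MCM2, MCM4 and MCM5, and of -0.14 to 0.15 with ORC1, CDT1, MCM3, MCM6 and GINS2. These values are descriptions over libraries that share 8 groups, depth and scaling. They include the spread between the rosiglitazone libraries of 48 h, whose part in them was not tested. Among the 14498 genes whose average log2 CPM was 1 or more, those most like the mean of the 10 genes were NCAPD3 (r = 0.91), a condensin subunit, E2F1 (0.89), a factor that drives genes of the G1 to S passage, CHAF1A (0.85), a subunit of the chromatin assembly factor that follows the fork, DCLRE1B (0.85), a nuclease that protects telomeres, and POLR3K (0.84), a subunit of RNA polymerase III. Chosen after the values were seen, the genes most like CDC6 alone were GART (0.98), an enzyme of purine synthesis, PPP2CA, a catalytic subunit of a phosphatase, AGFG1, ARL14 and PHLDA1.

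The other genes of replication fell in DMSO between 24 and 48 h in most cases. Of 15 further licensing and origin genes 9 were lower and 4 higher, of 15 genes that activate the helicase or travel with the fork 11 were lower and 0 higher, of 27 genes of DNA synthesis 21 were lower and 1 higher, and of 13 genes of nucleotide supply 9 were lower and 1 higher. Of 21 regulators of the passage from G1 to S 12 were lower and 3 higher, and of 24 genes of G2 and mitosis 22 were lower and 0 higher. The medians of the 6 lists lay between -0.76 (nucleotide supply) and -0.41 (further licensing genes) on the log2 scale, beside a median of 0 over all genes, of which 18.9% were lower and 19.7% higher.

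With the LXR agonists at 48 h the lists held genes called in either direction, except the helicase activation and fork genes with T0901317. Over all genes, 16.1% were higher and 17.5% lower with GW3965 and 14% and 16.1% with T0901317, against which the counts of these lists are to be read. Of the further licensing and origin genes 3 were higher and 7 lower with GW3965 and 1 was higher and 6 lower with T0901317. SKP2, which marks CDT1 for destruction, rose by 1.26 ± 0.185 and 1.52 ± 0.185, and ORC4 and ORC5, partners of ORC1 in the origin recognition complex, fell by 0.69 ± 0.06 and 0.64 ± 0.07 with GW3965 and by 0.535 ± 0.06 and 0.645 ± 0.07 with T0901317. LRWD1, which binds that complex, rose by 0.48 ± 0.08 with GW3965. Of the helicase activation and fork genes 3 were higher and 1 lower with GW3965, and 5 higher and 0 lower with T0901317. GINS1, the partner of GINS2, rose by 0.80 ± 0.13 and 1.13 ± 0.13, RECQL4, which takes part in helicase activation, rose by 0.70 ± 0.14 with GW3965, WDHD1, a fork protein, rose by 0.56 ± 0.15 with T0901317, and MCM8, a relative of the MCM genes that acts in repair, fell by 0.46 ± 0.08 with GW3965. LRWD1, RECQL4 and MCM8 were not called with T0901317 (-0.01 ± 0.08, 0.265 ± 0.14 and -0.24 ± 0.08), nor WDHD1 with GW3965 (0.28 ± 0.155). Their list medians were 0.11 and 0.26.

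Among the 27 genes of DNA synthesis 5 were higher and 3 lower with GW3965 and 7 higher and 3 lower with T0901317 at 48 h. The ligase LIG1 rose by 0.90 ± 0.22 with GW3965 and by 0.81 ± 0.22 with T0901317, and PCNA, the sliding clamp, by 0.55 ± 0.13 and 0.82 ± 0.13. The polymerase subunit POLD1 rose by 0.90 ± 0.20 with GW3965 and was not called with T0901317 (0.47 ± 0.20), and POLE2 rose by 0.885 ± 0.25 with T0901317 and was not called with GW3965 (0.50 ± 0.25). POLE3 fell by 0.46 ± 0.06 and 0.39 ± 0.06. In nucleotide supply, with 3 higher and 3 lower with GW3965 and 4 higher and 2 lower with T0901317, the nucleoside transporter SLC29A1 rose by 0.72 ± 0.14 and 0.67 ± 0.14 and GART fell by 0.41 ± 0.05 and 0.34 ± 0.05. Among the regulators of G1 to S, 3 were higher and 6 lower with GW3965 and 3 higher and 5 lower with T0901317. CCNE1, cyclin E1, rose by 0.60 ± 0.14 and 0.77 ± 0.135, whereas MYC fell by 1.11 ± 0.10 and 1.65 ± 0.10 and E2F5 by 0.735 ± 0.09 and 0.56 ± 0.09. Of the 24 genes of G2 and mitosis 1 was higher and 10 lower with GW3965 and 3 higher and 6 lower with T0901317. CDC20, which activates the anaphase-promoting complex, rose by 0.49 ± 0.09 and 0.36 ± 0.09, and TPX2, a spindle factor, fell by 0.75 ± 0.06 with GW3965 and fell by 0.545 ± 0.06 with T0901317.

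With rosiglitazone at 48 h, where 12.3% of all genes were higher and 13.1% lower, 0 of the 15 further licensing genes were higher and 3 lower, among them SKP2, which fell by 0.97 ± 0.20, and CDC7, the kinase that starts origin firing, by 0.52 ± 0.15. Of the 15 helicase activation and fork genes 0 were called by edgeR, 7 had an unadjusted p under 0.05 and DESeq2 called 1. Of the genes of DNA synthesis 2 were higher and 2 lower. POLD4 and POLD2 rose by 0.60 ± 0.12 and 0.46 ± 0.06, and RPA3 and POLD3 fell by 0.60 ± 0.135 and 0.37 ± 0.10. In nucleotide supply GART rose by 0.31 ± 0.05 and DUT fell by 0.47 ± 0.075. Of the regulators of G1 to S 3 were higher and 6 lower: MYBL2 and MYC rose by 0.66 ± 0.07 and 0.66 ± 0.095, and TFDP2 and CCNE2 fell by 1.26 ± 0.115 and 1.11 ± 0.23. Of the genes of G2 and mitosis 3 were higher and 3 lower, with CDC20 and TPX2 higher by 0.41 ± 0.09 and 0.26 ± 0.06 and ECT2 and TOP2A lower by 0.45 ± 0.08 and 0.32 ± 0.06.

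At 24 h few genes of these lists were called by edgeR. With GW3965 SKP2 alone was, lower by 0.31 ± 0.05, and with T0901317 POLD4 alone was, higher by 0.30 ± 0.06, whereas DESeq2 called 5 and 3 of the 115 genes. Rosiglitazone gave 10 higher and 5 lower calls over the 115 genes of the 6 lists, where 5.81% of all genes were higher and 6.52% lower. They include MYBL2 and E2F2, which rose by 0.65 ± 0.06 and 0.475 ± 0.12, TFDP2 and E2F7, which fell by 0.92 ± 0.10 and 0.325 ± 0.08, and CDC20 and PLK1, genes of mitosis, which rose by 0.605 ± 0.05 and 0.35 ± 0.06. POLD4 and UMPS, an enzyme of pyrimidine synthesis, rose by 0.31 ± 0.06 and 0.22 ± 0.055.

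Some calls of these other genes rested on single libraries or on the setting. With GW3965 at 48 h the LIG1 call was lost without DMSO replicate 3 (adjusted p = 0.0109). With T0901317 at 48 h LIG1 was not called without DMSO replicate 1, 3 or 4 or any 1 of the T0901317 libraries (adjusted p of at most 0.0243). With the same drug WDHD1 was not called without any 1 of its 4 treated libraries or without DMSO replicate 1, 3 or 4, POLE2 without any 1 of the DMSO libraries, T0901317 replicate 2 or 4 or GW3965 replicate 2, and CDC20 without DMSO replicate 3 or 4 or T0901317 replicate 1 or 2, with adjusted p of at most 0.0279, 0.0426 and 0.0192. With rosiglitazone at 48 h POLD3 was not called without DMSO replicate 2 or rosiglitazone replicate 2, 3 or 4 (adjusted p of at most 0.028), and CDC7 without DMSO replicate 2 or 3, rosiglitazone replicate 2, 3 or 4, GW3965 replicate 2 or 4 or any 1 of the T0901317 libraries (at most 0.0511). In fits of the rosiglitazone and DMSO libraries alone, SKP2, CDC7 and POLD3 were not called at 48 h (adjusted p = 0.0112, 0.035 and 0.0202), nor was CDC7 with RLE scaling, the scaling of DESeq2 (0.0107). The rises of GART, CDC20 and TPX2 with rosiglitazone at 48 h were not called with scaling by library size (log2 differences of 0.13, 0.23 and 0.08), which moved the median of all genes by -0.19. At 24 h POLD4 with T0901317 was not called without any 1 of the treated libraries, DMSO replicate 1, 2 or 3, GW3965 replicate 2 or rosiglitazone replicate 2 or 3 (at most 0.0333). With rosiglitazone at 24 h UMPS was not called without DMSO replicate 2, 3 or 4 or rosiglitazone replicate 2 or 4 (at most 0.0249), E2F7 without DMSO replicate 1 or 3 or rosiglitazone replicate 2, 3 or 4 (at most 0.0276), and E2F2 without any 1 of the DMSO libraries, T0901317 replicate 1, GW3965 replicate 2 or 4 or rosiglitazone replicate 1, 3 or 4 (at most 0.038). Scaling by library size also ended the 24 h calls of UMPS with rosiglitazone (log2 difference of 0.13, adjusted p = 0.186), E2F2 with rosiglitazone (0.38, adjusted p = 0.0199) and POLD4 with T0901317 (0.26, adjusted p = 0.0163), and UMPS was not called without the filter on low counts (adjusted p = 0.0141).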

How the data were processed

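RNA-seq was read from the 32 RNA libraries of HT29 cells. The authors deposited 2 tables of raw counts per gene, for 24 and 48 h. The submitters' processing notes name TopHat, Cufflinks and hg19 without versions or roles; the counting program, its strand setting and its annotation were not given in the sources used here. ChIP-seq peaks and signal were not used here.

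Counts were tested as deposited in R 4.3.3 with edgeR 4.0.16 (filterByExpr, TMM factors, quasi-likelihood test, Benjamini-Hochberg adjustment), with the 16 libraries of a time point in a fit, or all 32 for time and for the change of a response with time. The tests covered 21781, 22470 and 23140 genes. Intervals are 95% t intervals. DESeq2 1.42.0, other scalings, filters and thresholds, and leaving out each library were alternatives. Depth, 21044798 to 51332656 counts a library, limits low genes most. Counts were also simulated with changes in genes drawn at random from all genes tested. For GW3965 against DMSO at 48 h, edgeR recovered 49% of 100 genes changed 1.5-fold and 61% of 100 changed 2-fold. In that fit 1 unchanged gene was called. For the change of that response with time edgeR recovered 24% and 53%.

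The 10 genes, the 6 lists (115 genes) and the tests were chosen with earlier results of these data known. Beside the 10 genes, the text names called genes with the largest changes in each list (up to 2 in each direction for each drug and time, not all of which are reported here), the 5 genes most like the 10, and ABCA1 and PDK4. Libraries of a group were no duplicates: the lowest chi-square per gene over 48 pairs was 3.66. The highest was 73.2, between replicates 1 and 3 of GW3965 at 24 h.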

Additional observations from a re-analysis of the deposited data

Results flagged for a closer look

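In 3 of 80 groups of 4 libraries, 1 library stood far from the other 3, where chance gives about 1 in 20. ORC1 measured 15.1 CPM in replicate 2 of DMSO at 48 h, against 11 to 11.3 CPM in the others. CDC6 measured 55.7 CPM in replicate 1 of GW3965 at 24 h, against 43.3 to 45.1 CPM. MCM6 measured 106 CPM in replicate 3 of DMSO at 24 h, against 97 to 98.4 CPM.

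The response to a drug differed between 48 and 24 h by edgeR's test of that difference for 3 genes with GW3965 and 2 with T0901317. With GW3965 the log2 difference between the responses was 0.80 for ORC1, 0.82 for CDT1 and -0.92 for CDC6. With T0901317 it was 0.72 for ORC1 and -0.81 for CDC6.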

How the results depend on the processing

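No called change of the 10 genes changed sign in 1099 settings over 35 changes, of which 989 left the call in place, and among 3541 settings of uncalled values 99 changed sign, none of them called. Counts of genes called moved as follows. At an adjusted p under 0.05 they were 7 and 2 for rosiglitazone against GW3965 and T0901317 at 24 h, 5 for T0901317 and for rosiglitazone against GW3965 at 48 h, and 4 and 1 for the change of response with T0901317 and rosiglitazone. With a fold of at least 1.5 they were 0 for rosiglitazone against DMSO and GW3965 at 24 h, and 3 against T0901317 at 48 h. With a fold of at least 2 they were 3 for DMSO over time (ORC1, MCM3 and MCM4), 1 for rosiglitazone against each LXR agonist at 48 h, and 0 for each drug against DMSO at 48 h, for rosiglitazone against DMSO and GW3965 at 24 h and for the change of response with either LXR agonist. DESeq2 gave 1 for GW3965 at 24 h, 7 and 2 for rosiglitazone against GW3965 and T0901317 at 24 h, and 1 for the change of response with rosiglitazone. Scaling by library size gave 2 for GW3965 and 0 for rosiglitazone at 24 h, and 2 for rosiglitazone against GW3965, as did no filter on low counts. With the libraries of the comparison alone they were 1 for rosiglitazone against GW3965 and against T0901317 at 24 h, 5 for GW3965 and T0901317 at 48 h and for their change of response, 3 for rosiglitazone against T0901317 at 48 h and 1 for its change of response. The cause of these moves was not tested, beyond the stricter or looser rule itself.

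Over libraries left out, the counts ranged from 0 to 1 for rosiglitazone at 24 h, 1 to 7 and 0 to 2 for it against GW3965 and T0901317 at 24 h, 2 to 5 for T0901317 and 1 to 2 for rosiglitazone at 48 h, 3 to 4 and 4 to 6 for rosiglitazone against GW3965 and T0901317 at 48 h, and 3 to 4, 1 to 3 and 0 to 1 for the change of response with GW3965, T0901317 and rosiglitazone. No sign was seen that replicate numbers pair libraries, and the labels do not say whether they do. Of 24 treated libraries 0 correlated over 0.1 with the DMSO library of the same number (-0.08 to 0.09), and 7 correlated best with it. With the replicate number as a block, 1 gene in place of 4 was called for rosiglitazone against GW3965 at 24 h, and no other count of the 10 genes moved by over 1.5 times; of the other named genes, UMPS and E2F2 with rosiglitazone at 24 h were not called with it (adjusted p = 0.0109 and 0.0113). The alternative of a wider window for promoter peaks was not run, because start sites on hg19 were not used here. Among the other named genes, no call changed sign in 2200 settings. In the simulated counts, whose changed genes were drawn from all genes tested, changes of 1.5-fold were often missed. How far this holds for the 10 genes was not tested. Smaller changes were called among them, such as MCM5 for rosiglitazone against GW3965 at 24 h (1.25-fold).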
